A study of Mus musculus with 4 samples.

Results

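The genes described here carry out or control the use of glucose and the response to low oxygen in mouse embryonic fibroblasts (MEFs). 38 genes were chosen by their symbols, for their known roles in glucose and lactate transport, glycolysis, the fate of pyruvate, the hypoxia-inducible factor (HIF) pathway and glycogen. The choice was made with earlier results of these data known, so their shares set beside those of all genes are a description. The 38 genes stand among 18193 genes of the array. On the Affymetrix Mouse Genome 430 2.0 array, 77 of 45101 probe sets named 1 of these genes and no other, and they covered 36 of the 38. Eno1 and Gpi1 had no probe set that named them alone and were not analysed here, and Gapdh was represented by 3 control probe sets of the array. Of the 35 genes on regular probe sets, 34 lay above the detection floor on at least 1 array and 28 on all 4. The floor is the median of all deposited values, log2 6.27. Aldoc was below it on all 4 arrays.

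RNA of 4 conditions was measured, with 1 array for each. They were FAN-/- MEFs treated with TNF, untreated FAN-/- MEFs, FAN+/+ MEFs treated with TNF, and untreated FAN+/+ MEFs. FAN (gene Nsmaf) links the main TNF receptor of fibroblasts to the activation of neutral sphingomyelinase. All cells came from C57BL/6 embryos and were kept without serum: treated cells for 8 h before and during 16 h with 50 ng/ml TNF, untreated cells for 24 h. The number of embryos or cultures behind an array, the embryos' age and the deleted part of Nsmaf were not given in the sources used here. Groups follow the sample titles. The genotype entries differ from the titles for 2 of the 4 samples, since they call TNF-treated FAN+/+ cells FAN-/- and untreated FAN-/- cells wild type. Under those entries genotype and TNF treatment could not be told apart. Statements on genotype therefore rest on the titles.

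Glycolysis turns glucose into pyruvate in the cytosol. Hexokinase, phosphofructokinase and glucose transport are its main points of control. Pyruvate then enters mitochondria through pyruvate dehydrogenase, which the Pdk kinases inhibit, or is reduced to lactate by lactate dehydrogenase and leaves the cell through monocarboxylate transporters. HIF is a transcription factor made of an oxygen-sensitive alpha subunit and a stable partner. When oxygen is present, prolyl hydroxylases (Egln genes) mark the alpha subunit for destruction. Control acts largely on the protein, which arrays do not measure. HIF raises many genes of glycolysis and lactate export, and its core binding letters are ACGTG and GCGTG. In fibroblasts, inflammatory signals that act through NF-kB are also known to raise transcription of the alpha subunit.

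Promoters are printed for 5 of the 6 genes that were at least 2-fold higher with TNF in FAN+/+ cells. The promoter of the gene that was at least 2-fold lower with TNF in both genotypes is printed as well. These genes were taken because they passed the 2-fold line. Epas1, the remaining gene that was higher, had the largest response in FAN+/+ cells but no promoter in the source used here. Each sequence is the 250 bases before the transcription start, 5′ to 3′ on the gene's strand, from RefSeq (GRCm38.p6). Capitals mark ACGTG or GCGTG on either strand.
Hk2 (chr6:82774455-82774704, minus strand): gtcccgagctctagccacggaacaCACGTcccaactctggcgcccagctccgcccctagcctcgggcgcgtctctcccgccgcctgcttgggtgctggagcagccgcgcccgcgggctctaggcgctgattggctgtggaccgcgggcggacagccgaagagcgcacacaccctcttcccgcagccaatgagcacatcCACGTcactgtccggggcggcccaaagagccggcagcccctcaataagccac
Pfkl (chr10:78009808-78010057, minus strand): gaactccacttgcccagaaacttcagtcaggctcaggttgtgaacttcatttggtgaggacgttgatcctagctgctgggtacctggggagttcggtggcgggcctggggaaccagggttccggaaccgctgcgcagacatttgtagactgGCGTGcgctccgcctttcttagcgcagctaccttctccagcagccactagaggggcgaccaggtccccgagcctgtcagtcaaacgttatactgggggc
Pfkfb3 upstream start (chr2:11553930-11554179, minus strand): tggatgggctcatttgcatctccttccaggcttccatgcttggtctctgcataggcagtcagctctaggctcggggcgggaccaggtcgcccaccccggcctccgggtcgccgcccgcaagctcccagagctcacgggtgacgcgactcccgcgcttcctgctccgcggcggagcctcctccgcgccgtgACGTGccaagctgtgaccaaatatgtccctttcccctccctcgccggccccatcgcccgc
Pfkfb3 downstream start (chr2:11502091-11502340, minus strand): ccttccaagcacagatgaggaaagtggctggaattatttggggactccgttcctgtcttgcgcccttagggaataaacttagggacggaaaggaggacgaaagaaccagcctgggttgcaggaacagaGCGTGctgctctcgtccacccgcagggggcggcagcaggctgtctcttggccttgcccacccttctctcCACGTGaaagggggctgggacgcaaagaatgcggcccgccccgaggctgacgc
Slc16a1 (chr3:104638414-104638663, plus strand): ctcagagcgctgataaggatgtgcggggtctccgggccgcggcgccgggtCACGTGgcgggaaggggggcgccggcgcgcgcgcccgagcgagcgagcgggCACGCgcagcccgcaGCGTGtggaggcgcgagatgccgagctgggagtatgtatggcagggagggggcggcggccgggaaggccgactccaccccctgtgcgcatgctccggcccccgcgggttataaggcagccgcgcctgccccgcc
Slc16a3 (chr11:120948817-120949066, plus strand): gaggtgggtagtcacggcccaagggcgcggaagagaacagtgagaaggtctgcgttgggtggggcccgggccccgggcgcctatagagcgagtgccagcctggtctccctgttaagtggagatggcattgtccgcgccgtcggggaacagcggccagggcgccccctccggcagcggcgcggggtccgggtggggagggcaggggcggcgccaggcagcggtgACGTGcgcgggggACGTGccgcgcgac
Ppp1r3c (chr19:36736605-36736854, minus strand): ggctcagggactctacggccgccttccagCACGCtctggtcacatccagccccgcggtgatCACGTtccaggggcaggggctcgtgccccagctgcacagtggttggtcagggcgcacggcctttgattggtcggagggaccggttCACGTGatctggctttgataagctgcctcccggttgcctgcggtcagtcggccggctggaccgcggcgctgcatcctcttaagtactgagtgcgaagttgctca

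The letters ACGTG or GCGTG were present on one strand or the other in 39 of 49 promoters of the chosen genes (79.6%), which cover 35 of them. The share was 38.6% over all 32851 promoters of the same length in the table. GC content was also higher, with a median of 61.6% in the promoters of these genes against 52.4% in all promoters, and its part in the difference was not tested. The 6 printed promoters of the genes higher with TNF all held a match. Positions are those of the first base of a match on the printed strand, with -1 the base before the start. In the Hk2 promoter the matches lay at -226 and -52, and in the Pfkl promoter at -99. The upstream Pfkfb3 start had a match at -60, and the downstream start had matches at -122, -53 and -52. Slc16a1 had matches at -200, -199, -149 and -134, and Slc16a3 at -27 and -14. Pairs 1 base apart are the palindrome CACGTG read on both strands. Ppp1r3c, the gene that was lower with TNF, held matches as well, at -221, -189, -104 and -103. GGGNNNNNCC, a pattern of NF-kB sites searched on both strands, was found in 32 of the 49 promoters (65.3%) and in 45.8% of all promoters. These matches are letters in a window and no measure of binding.

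**Figure D1:**
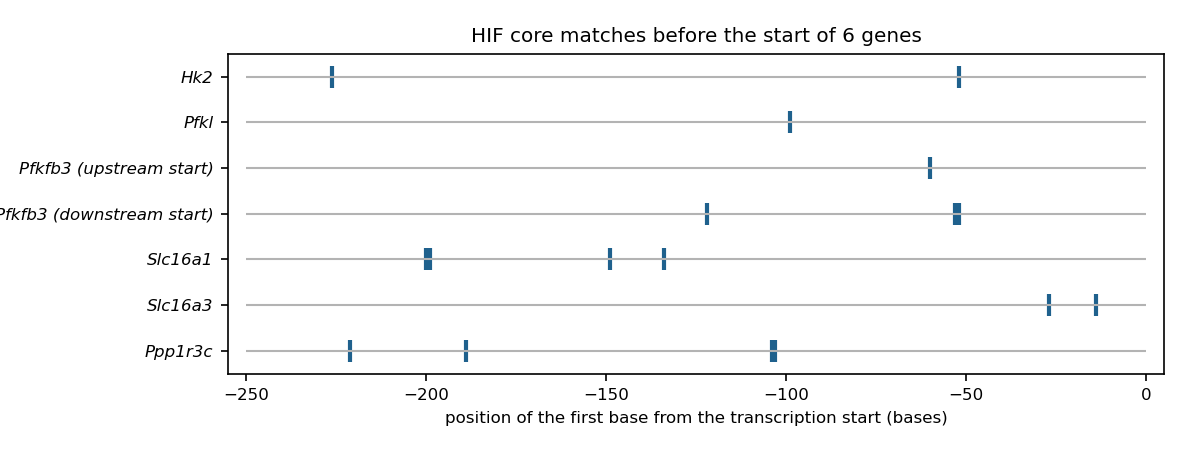
Positions of ACGTG or GCGTG on either strand in the 250 bases before the start of the 7 printed promoters of 6 genes. The x axis is the distance of a match's first base from the transcription start in bases, each bar is 1 match, and thick bars are pairs 1 base apart. Each promoter holds at least 1 match.

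The arrays were alike in overall level, with 49.2% to 50.5% of probe sets above the floor and 3′ to 5′ signal ratios of the Gapdh controls of 1.03 to 1.09. The hybridisation spikes had median signals of 622 and 593 on the FAN-/- arrays with and without TNF, and of 676 and 737 on the FAN+/+ arrays. Fibroblast markers lay above the floor for 13 of 13 genes on every array. Of 10 leukocyte markers, 5 were above it on all 4 arrays (Csf1r, Lyz2, Cd14, Laptm5 and Fcer1g) and 5 on none, among them Ptprc. Of 8 endothelial markers, 3 were above it on all 4 arrays (Kdr, Tek and Eng) and 5 on none, among them Pecam1 and Cdh5. TNF raised 13 of 13 tested genes of the NF-kB response, a list of inhibitors, NF-kB subunits, chemokines and adhesion molecules. Tnfaip3, an inhibitor of NF-kB, had log2 values of 12.45 and 12.59 on the TNF arrays of FAN-/- and FAN+/+ cells, against 8.58 and 8.83 on the untreated ones. The chemokine Ccl5 had 11.70 and 13.84 on the same TNF arrays, against 6.15, below the floor, and 6.35 on the untreated ones. Nsmaf had log2 values of 7.48 and 7.91 in FAN-/- cells with and without TNF, against 8.55 and 8.95 in FAN+/+ cells (log2 difference -1.06 ± 0.11, SE, limma adjusted p = 0.019). Where this probe set lies relative to the deleted part of the gene was not given, so its level does not check the titles.

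Single arrays were set against each other with no p-value, and a gene counted as 2-fold apart at a log2 difference of 1 or more, after values below the floor were raised to it. An additive limma model then used all 4 arrays, with TNF and genotype as terms and Benjamini-Hochberg adjustment over 11817 genes, 33 of them from the chosen set. With 1 array a condition, its error is the difference between the TNF responses of the genotypes, so a gene that responds unequally has a large error. The labels do not say whether arrays came from separate preparations, and p-values describe the spread of these arrays. The comparisons share arrays, so they are not independent of each other. In RNA of whole cultures, fewer cells that express a gene and less RNA per cell cannot be told apart.

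The TNF response of the glycolysis and hypoxia genes covered a narrower range in FAN-/- cells than in FAN+/+ cells, as did that of all genes. Over all genes, the 5th and 95th percentiles were -0.45 and 0.45 in FAN-/- cells, against -0.67 and 0.56 in FAN+/+ cells. In FAN-/- cells, Hk2 was at least 2-fold higher with TNF and Ppp1r3c at least 2-fold lower, out of 34 genes, and the background over all 12224 genes above the floor was 1.35% higher and 1.07% lower. In FAN+/+ cells, Hk2, Pfkl, Pfkfb3, Slc16a1, Slc16a3 and Epas1 were at least 2-fold higher (17.6% of the 34, background 2.2%), and Ppp1r3c was at least 2-fold lower (2.94%, background 1.92%). The median log2 response of the 34 genes was 0.06 in FAN-/- cells and 0.47 in FAN+/+ cells, where all genes had medians of 0.01 and -0.03. Slc16a3 entered the 34 genes through the array where it is high, so the counts over 34 are a description. Over the 28 genes above the floor on all 4 arrays, the medians were 0.11 in FAN-/- cells and 0.47 in FAN+/+ cells, and 4 of 28 were at least 2-fold higher with TNF in FAN+/+ cells (14.3%, against 1.96% of all such genes). The medians were 0.04 to 0.06 in FAN-/- cells and 0.37 to 0.49 in FAN+/+ cells under the other floors, scalings and choices of probe set.

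**Figure D2:**
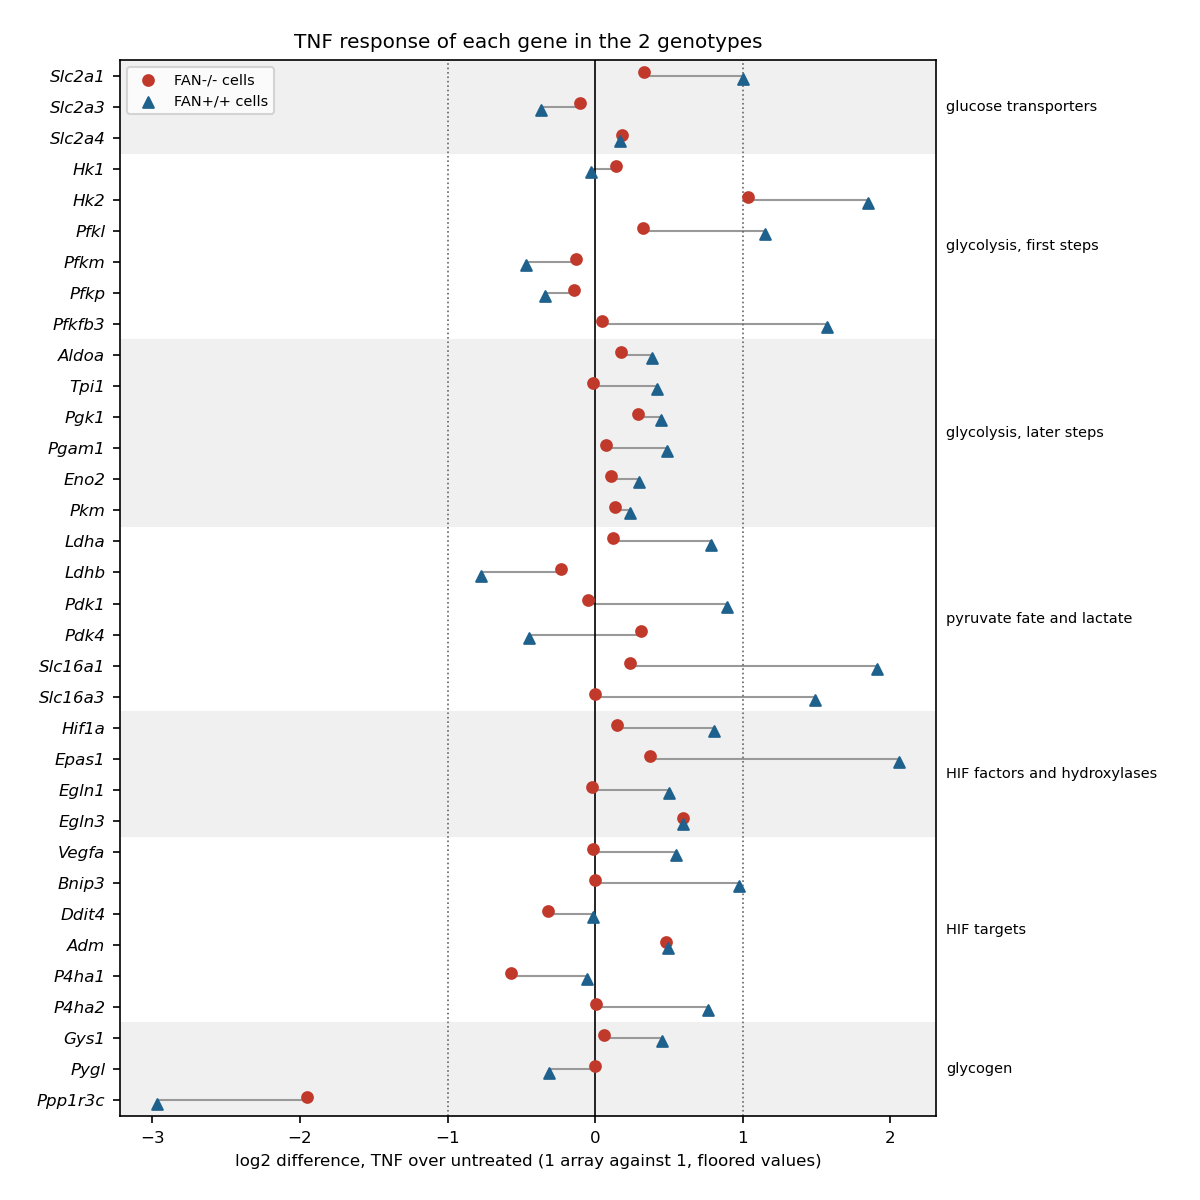
Log2 difference between TNF-treated and untreated cells for each gene (x axis), in FAN-/- cells and FAN+/+ cells, 1 array against 1. Values below the floor were raised to it, so the FAN-/- point of Slc2a3 and the FAN+/+ points of Pfkfb3, Slc16a3, Egln3 and Ppp1r3c are bounds, and the FAN-/- points of Slc16a3 and Pygl at 0 rest on floored values alone. Dotted lines mark a 2-fold difference. The FAN+/+ point lies to the right of the FAN-/- point for 24 of 34 genes.

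**Figure D3:**
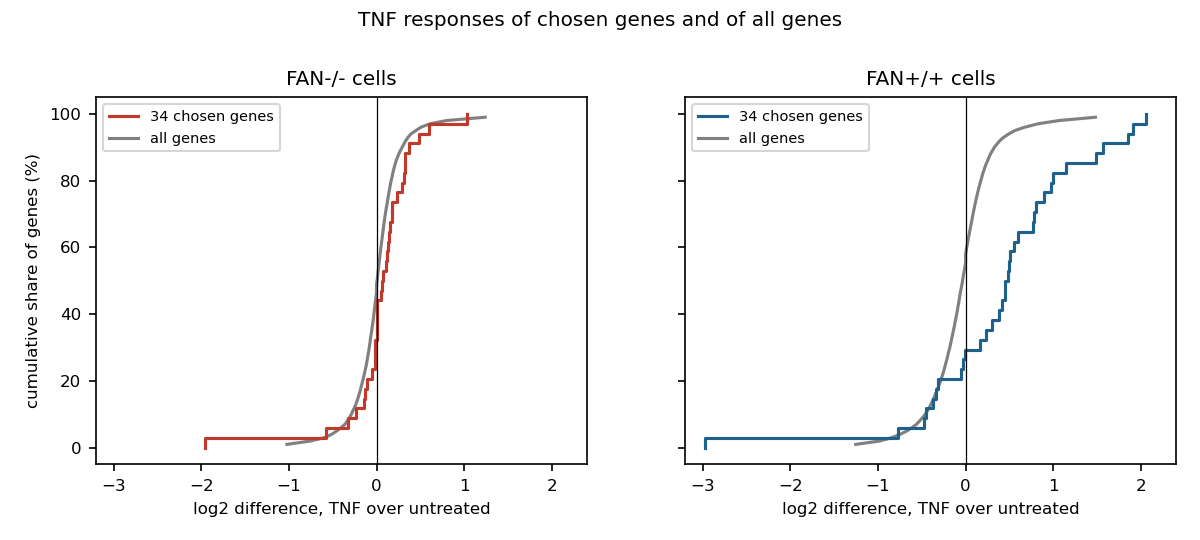
Cumulative share of genes in percent (y axis) by log2 TNF response (x axis), for the 34 chosen genes (coloured steps) and all genes above the floor (grey, without the lowest and highest 1%), in FAN-/- cells (left) and FAN+/+ cells (right). The median of the chosen genes is 0.06 in FAN-/- cells and 0.47 in FAN+/+ cells, beside medians of 0.01 and -0.03 for all genes.

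Glucose transporters gave a mixed picture. Slc2a1, the basal glucose transporter of most cells, had log2 values of 10.19 with TNF and 9.86 untreated in FAN-/- cells, against 10.73 with TNF and 9.74 untreated in FAN+/+ cells. Both TNF arrays lay above both untreated arrays, by 1.26-fold in FAN-/- cells and 2.00-fold in FAN+/+ cells, the second just short of the 2-fold line at a log2 difference of 0.9987. Its limma TNF estimate was 0.66 (adjusted p = 0.17). Slc2a3, a high-affinity transporter, and Slc2a4, the insulin-responsive transporter of muscle and fat, stayed between log2 6.26 and 6.86, near the floor.

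Among the enzymes of the first steps, Hk2 had the largest responses in both genotypes by the deposited values. In FAN+/+ cells its rank above Pfkfb3 is uncertain, since the untreated Pfkfb3 value is below the floor. Hk2 is the inducible hexokinase that traps glucose in the cell. Its log2 values were 9.90 with TNF and 8.87 untreated in FAN-/- cells, against 10.16 with TNF and 8.31 untreated in FAN+/+ cells. Both TNF arrays were above both untreated arrays, 2.05-fold in FAN-/- cells and 3.61-fold in FAN+/+ cells. The limma estimate of 1.44 ± 0.22 (SE) missed the threshold (adjusted p = 0.055). It passed under 5 of the alternative settings, with limma adjusted p of 0.00217 to 0.0475, the smallest with centred arrays. It missed with the floor at the 30th percentile, the dimmer probe sets, no intensity trend and no genotype term (limma adjusted p = 0.065 to 0.36). Hk2 has 1 probe set, so choices of probe set changed other genes only. Hk1, the constitutive hexokinase, lay between 10.43 and 10.71 on all arrays.

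Pfkl, the liver-type subunit of phosphofructokinase, was highest on the FAN+/+ TNF array. Its log2 values were 9.95 with TNF and 9.63 untreated in FAN-/- cells, against 11.32 with TNF and 10.17 untreated in FAN+/+ cells. TNF-treated cells exceeded untreated ones 1.25-fold in FAN-/- cells and 2.22-fold in FAN+/+ cells, and another Pfkl probe set above the floor on all 4 arrays gave log2 differences of 0.37 and 1.10 in the same order. The muscle and platelet subunits, Pfkm and Pfkp, had the opposite sign, with log2 responses of -0.13 and -0.15 in FAN-/- cells and -0.47 and -0.34 in FAN+/+ cells. Pfkfb3 makes the sugar bisphosphate that activates phosphofructokinase. It had log2 values of 6.92 with TNF and 6.87 untreated in FAN-/- cells, against 7.84 with TNF and 6.18 untreated in FAN+/+ cells. The last value is below the floor, so TNF-treated FAN+/+ cells were at least 2.97-fold higher than untreated ones, while the arrays of FAN-/- cells differed by 0.05 on the log2 scale. A dimmer Pfkfb3 probe set lay near the floor and gave a difference of at least 0.09 in FAN+/+ cells, a bound set by the floor. Its deposited values differed by 0.61 in FAN+/+ cells and by -0.05 in FAN-/- cells.

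The enzymes of the later steps moved little. Of 6 measured genes above the floor (Aldoa, Tpi1, Pgk1, Pgam1, Eno2 and Pkm), 5 were higher with TNF in FAN-/- cells, where the log2 differences ranged from -0.02 to 0.29, and 6 in FAN+/+ cells, where they ranged from 0.23 to 0.49. Pgk1, the first enzyme of the pathway to yield ATP, is an example. It had log2 values of 13.19 with TNF and 12.90 untreated in FAN-/- cells, against 13.45 with TNF and 13.00 untreated in FAN+/+ cells. Both TNF arrays were above both untreated ones, and limma gave 0.37 (adjusted p = 0.10). The 3 Gapdh control probe sets differed by 0.05 to 0.06 with TNF in FAN-/- cells and by 0.26 to 0.32 in FAN+/+ cells. Aldoa, Tpi1, Pgk1, Pkm, Ldha and Gapdh have near-identical processed copies in the mouse genome, and how far their probe sets read those copies is uncertain.

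With TNF, the 6 pyruvate and lactate genes had the widest median gap between the genotypes among the role groups, a log2 difference of -1.26. That median lies between Slc16a3, at a bound of -1.49, and Ldha, at -1.02. Slc16a3 entered the group through the FAN+/+ TNF array where it is high, so the median is a description. In untreated cells the glycogen genes had a wider median, -0.47 over 3 genes against -0.29 over 6. Pygl passed the filter through the FAN+/+ arrays alone, and Slc16a3 was at the floor on both untreated arrays. The order of these medians is therefore a description too. Slc16a1, a transporter that carries lactate and pyruvate with a proton, had log2 values of 8.24 with TNF and 8.00 untreated in FAN-/- cells, against 11.58 with TNF and 9.67 untreated in FAN+/+ cells. The TNF arrays were 1.18-fold above the untreated in FAN-/- cells and 3.75-fold in FAN+/+ cells. Both FAN-/- arrays were below both FAN+/+ arrays, 10.2-fold with TNF and 3.19-fold untreated. Its other probe set was below the floor on all 4 arrays. Slc16a3, the lactate exporter typical of glycolytic cells, was above the floor on the FAN+/+ TNF array alone. Slc16a3 had log2 values of 5.91 with TNF and 5.87 untreated in FAN-/- cells, against 7.76 with TNF and 5.84 untreated in FAN+/+ cells. TNF-treated FAN+/+ cells were thus at least 2.81-fold above untreated ones.

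The lactate dehydrogenase subunits went in opposite directions. Ldha, which favours lactate formation, had log2 values of 11.93 with TNF and 11.81 untreated in FAN-/- cells, against 12.95 with TNF and 12.17 untreated in FAN+/+ cells. Ldhb, which favours pyruvate formation, had log2 values of 10.76 with TNF and 10.99 untreated in FAN-/- cells, against 9.97 with TNF and 10.74 untreated in FAN+/+ cells. In FAN-/- cells the TNF difference was 0.12 for Ldha and -0.23 for Ldhb, and in FAN+/+ cells it was 0.78 for Ldha and -0.77 for Ldhb. The 3 further Ldhb probe sets had the same sign in FAN+/+ cells. Pdk1, a kinase that shuts pyruvate dehydrogenase, had log2 values of 7.62 with TNF and 7.67 untreated in FAN-/- cells, against 9.17 with TNF and 8.28 untreated in FAN+/+ cells. Pdk4, which has the same function and is better known from fasting, differed by 0.31 with TNF in FAN-/- cells and by -0.45 in FAN+/+ cells.

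**Figure D4:**
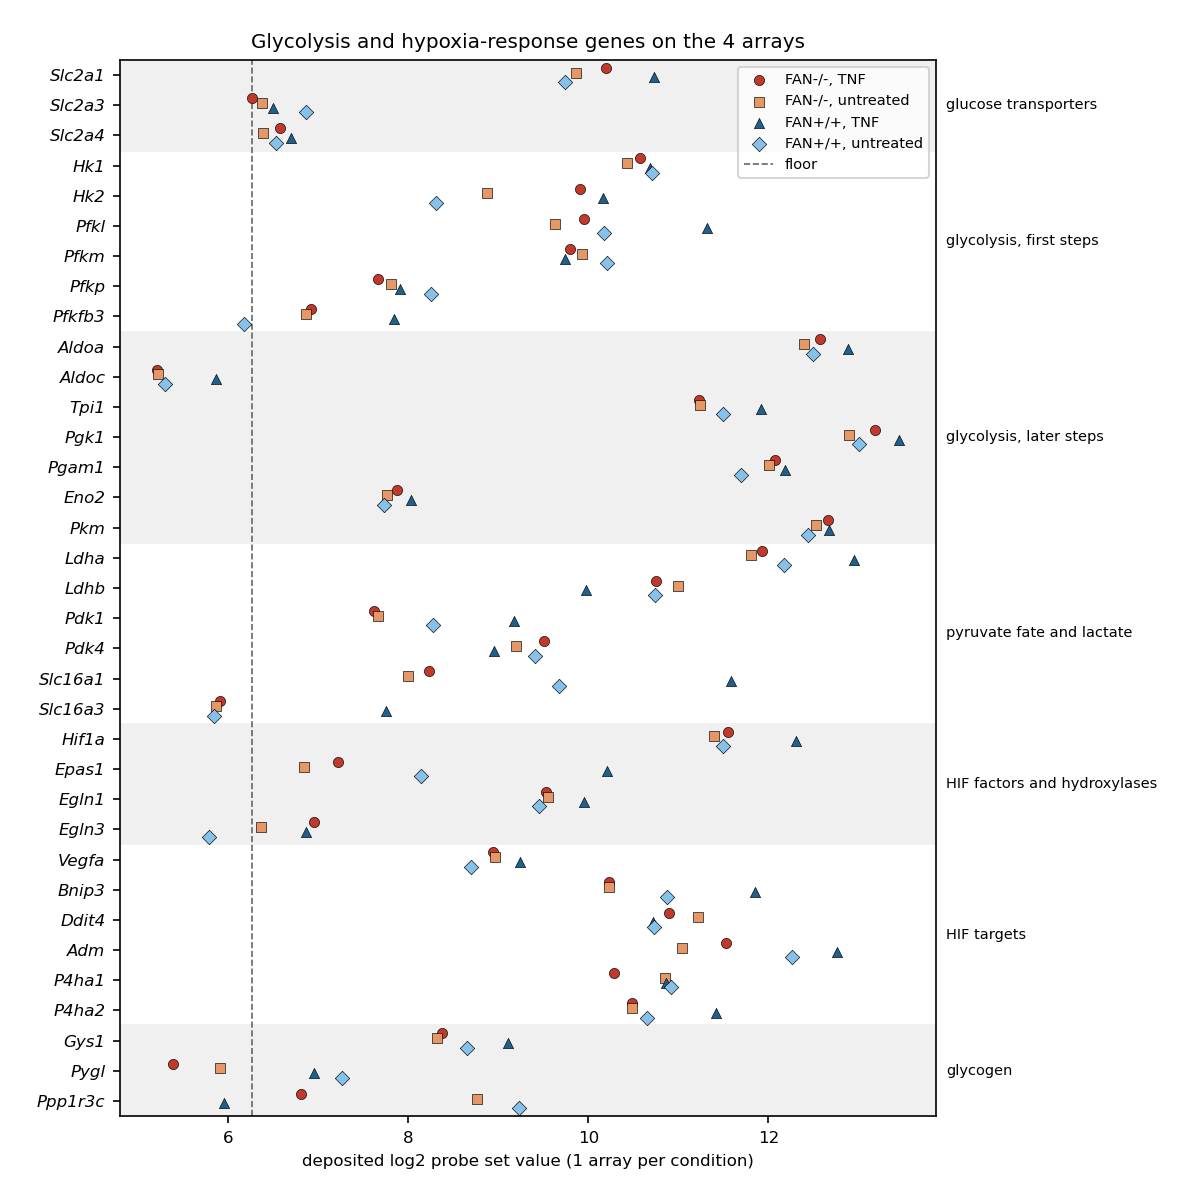
Deposited log2 values of 35 genes on the 4 arrays (x axis), grouped by role, with the floor as a dashed line. Points are single arrays with no error. The FAN+/+ TNF array stands to the right of the other 3 for genes such as Pfkl, Slc16a1, Epas1 and Bnip3.

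HIF alpha subunits were higher with TNF mainly in FAN+/+ cells. Epas1, the alpha subunit best known from endothelium, had log2 values of 7.22 with TNF and 6.84 untreated in FAN-/- cells, against 10.20 with TNF and 8.15 untreated in FAN+/+ cells. The TNF arrays were 1.29-fold above the untreated in FAN-/- cells and 4.16-fold in FAN+/+ cells. A dimmer Epas1 probe set, at or near the floor, gave a difference of at least 0.15 in FAN+/+ cells, a bound set by the floor. Its deposited values differed by 0.59 in FAN+/+ cells and by 0.08 in FAN-/- cells. Hif1a, the widely expressed alpha subunit, had log2 values of 11.55 with TNF and 11.40 untreated in FAN-/- cells, against 12.30 with TNF and 11.50 untreated in FAN+/+ cells. The 3 other Hif1a probe sets had the same sign in FAN+/+ cells.

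The hydroxylases Egln1 and Egln3 oppose HIF and are its targets as well. Egln1 differed by -0.02 with TNF in FAN-/- cells and by 0.50 in FAN+/+ cells. Egln3 had log2 values of 6.96 with TNF and 6.36 untreated in FAN-/- cells, against 6.86 with TNF and 5.79 untreated in FAN+/+ cells. Both TNF arrays were above both untreated ones, and the limma estimate of 0.59 ± 0.090 (SE) missed the threshold (adjusted p = 0.056). The floor limits this estimate: the deposited values differed by 0.60 in FAN-/- cells and by 1.07 in FAN+/+ cells, and the limma estimate without the floor was 0.83 (adjusted p = 0.067). It passed with centred arrays, quantile normalization and the mean of probe sets (limma adjusted p = 0.011 to 0.048).

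The 6 HIF targets of the set differed by a median of -0.01 with TNF in FAN-/- cells and of 0.52 in FAN+/+ cells. Bnip3, a mitophagy receptor, had log2 values of 10.22 both with TNF and untreated in FAN-/- cells, against 11.85 with TNF and 10.88 untreated in FAN+/+ cells. Its 2 FAN-/- values differed by less than 0.01. Vegfa, the vascular growth factor, differed by -0.02 in FAN-/- cells and by 0.55 in FAN+/+ cells. P4ha2, a subunit of collagen prolyl hydroxylase, differed by 0.00 in FAN-/- cells and by 0.77 in FAN+/+ cells, and its relative P4ha1 by -0.57 in FAN-/- cells and by -0.06 in FAN+/+ cells. Ddit4, an inhibitor of mTOR signalling, differed by -0.32 in FAN-/- cells and by -0.01 in FAN+/+ cells.

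Adm, which encodes the vasodilator peptide adrenomedullin, had almost the same response in both genotypes. Its log2 values were 11.53 with TNF and 11.04 untreated in FAN-/- cells, against 12.76 with TNF and 12.26 untreated in FAN+/+ cells. Both FAN-/- arrays lay below both FAN+/+ arrays, 2.35-fold with TNF and 2.33-fold untreated. TNF-treated and untreated cells differed by 0.48 in FAN-/- cells and 0.50 in FAN+/+ cells (limma 0.49 ± 0.077, SE, adjusted p = 0.060).

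Among the 3 glycogen genes, Ppp1r3c was lower with TNF in both genotypes. Ppp1r3c, which brings protein phosphatase to glycogen and so favours glycogen synthesis, had log2 values of 6.81 with TNF and 8.76 untreated in FAN-/- cells, against 5.96 with TNF and 9.24 untreated in FAN+/+ cells. TNF-treated cells were 3.87-fold lower in FAN-/- cells and at least 7.82-fold lower in FAN+/+ cells. It fell with TNF in the additive model (log2 difference -2.46 ± 0.26, SE, limma adjusted p = 0.027). The call was lost with the floor at the 30th percentile (adjusted p = 0.058), with the dimmer probe set (-0.65, adjusted p = 0.078) and without the genotype term (0.29) in the limma model. Gys1, glycogen synthase, differed by 0.06 with TNF in FAN-/- cells and by 0.45 in FAN+/+ cells. Pygl, the liver form of glycogen phosphorylase, had log2 values of 5.39 with TNF and 5.91 untreated in FAN-/- cells, both below the floor, against 6.95 with TNF and 7.27 untreated in FAN+/+ cells.

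Across the set, limma called 0 of 33 genes risen with TNF and 1 fallen, Ppp1r3c (background 1.57% higher and 1.14% lower). Before adjustment, 9 higher and 2 lower genes had a p under 0.05, where 8.20% of all genes were higher and 10.6% lower at that level. On both TNF arrays, 11 of 33 genes were above both untreated arrays (33.3%, background 18.3%). They were Slc2a1, Slc2a4, Hk2, Pfkfb3, Aldoa, Pgk1, Pgam1, Eno2, Pkm, Hif1a and Egln3. Pfkm and Ppp1r3c were below on both (background 19.6%).

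The TNF response was compared between genotypes next, which no test of this design can judge. The FAN-/- response was smaller by a log2 difference of 1 or more for Pfkfb3, Slc16a1, Slc16a3 and Epas1 (11.8% of 34, background 0.818%) and larger, that is less negative, for Ppp1r3c (2.94%, background 0.794%). Over the 28 genes above the floor on all 4 arrays, it was smaller for 2, Slc16a1 and Epas1 (7.14%, against 0.546% of all such genes), and larger for 0 (0.528% of all such genes). The differences of responses, FAN-/- minus FAN+/+, were -1.67 for Slc16a1 and -1.69 for Epas1. Those of the other 3 rest on floored values and are bounds, -1.52 or lower for Pfkfb3, -1.49 or lower for Slc16a3 and 1.01 or higher for Ppp1r3c. The deposited values gave -1.61 for Pfkfb3, -1.87 for Slc16a3 and 1.33 for Ppp1r3c. Of the 34 genes, 24 had a smaller or more negative response in FAN-/- cells, and the median difference was -0.41. Over all genes the median was 0.05, and 4891 of 12224 had a smaller or more negative response in FAN-/- cells. The difference was negative for all 6 later-step enzymes (-0.44 to -0.10) and all 6 HIF targets (-0.97 to -0.01). Among these targets, P4ha1 and Ddit4 were lower with TNF and more so in FAN-/- cells. Their responses were -0.57 and -0.32 there, against -0.06 and -0.01 in FAN+/+ cells.

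Genotype differences were directed mostly downwards in FAN-/- cells. With TNF, 8 of 34 genes were at least 2-fold lower in FAN-/- cells than in FAN+/+ cells (23.5%, background 2.64%) and 0 were 2-fold higher (background 1.55%). The 8 were Pfkl, Ldha, Pdk1, Slc16a1, Slc16a3, Epas1, Bnip3 and Adm. Epas1 was 7.93-fold lower, Bnip3 3.09-fold, Pdk1 2.94-fold, Pfkl 2.57-fold and Ldha 2.03-fold. In untreated cells, 4 were at least 2-fold lower in FAN-/- cells, namely Slc16a1, Epas1, Adm and Pygl (11.8%, background 2.89%), and 0 were higher (background 1.45%). Over the 28 genes above the floor on all 4 arrays, 7 were at least 2-fold lower with TNF (25.0%, against 2.32% of all such genes) and 3 untreated (10.7%, against 2.45%). The median log2 difference was -0.36 with TNF and -0.15 untreated, where all genes had medians of 0.01 and -0.03.

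In the additive model, 3 of 33 genes fell in FAN-/- cells and 0 rose (background 3.67% lower and 2.94% higher). Before adjustment, limma gave 13 lower and 2 higher genes a p under 0.05, where 13.3% of all genes were lower and 11.2% higher at that level. Adm fell by 1.23 ± 0.077 (log2, SE, limma adjusted p = 0.0085). Pygl fell by 0.84 ± 0.12 (limma adjusted p = 0.031). It passed the filter through the FAN+/+ arrays alone, and both of its FAN-/- values were raised to the floor, so its call is a description. Over the 28 genes above the floor on all 4 arrays, 2 fell, Adm and Slc16a1. Without the floor, Pygl fell by 1.46 in the limma model. Slc16a1 fell by 2.51 ± 0.41 (limma adjusted p = 0.041), a call that was lost with the floor at the 30th percentile (adjusted p = 0.056) and with the mean of its probe sets (-1.30, adjusted p = 0.075). All 3 calls were lost in the limma model without the TNF term (adjusted p = 0.15 to 0.27). Epas1 missed the threshold at -2.14 ± 0.41 (limma adjusted p = 0.060), as did Bnip3 at -1.14 (adjusted p = 0.075), Pfkl at -0.95 (adjusted p = 0.083) and Pdk1 at -1.09 (adjusted p = 0.085).

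**Figure D5:**
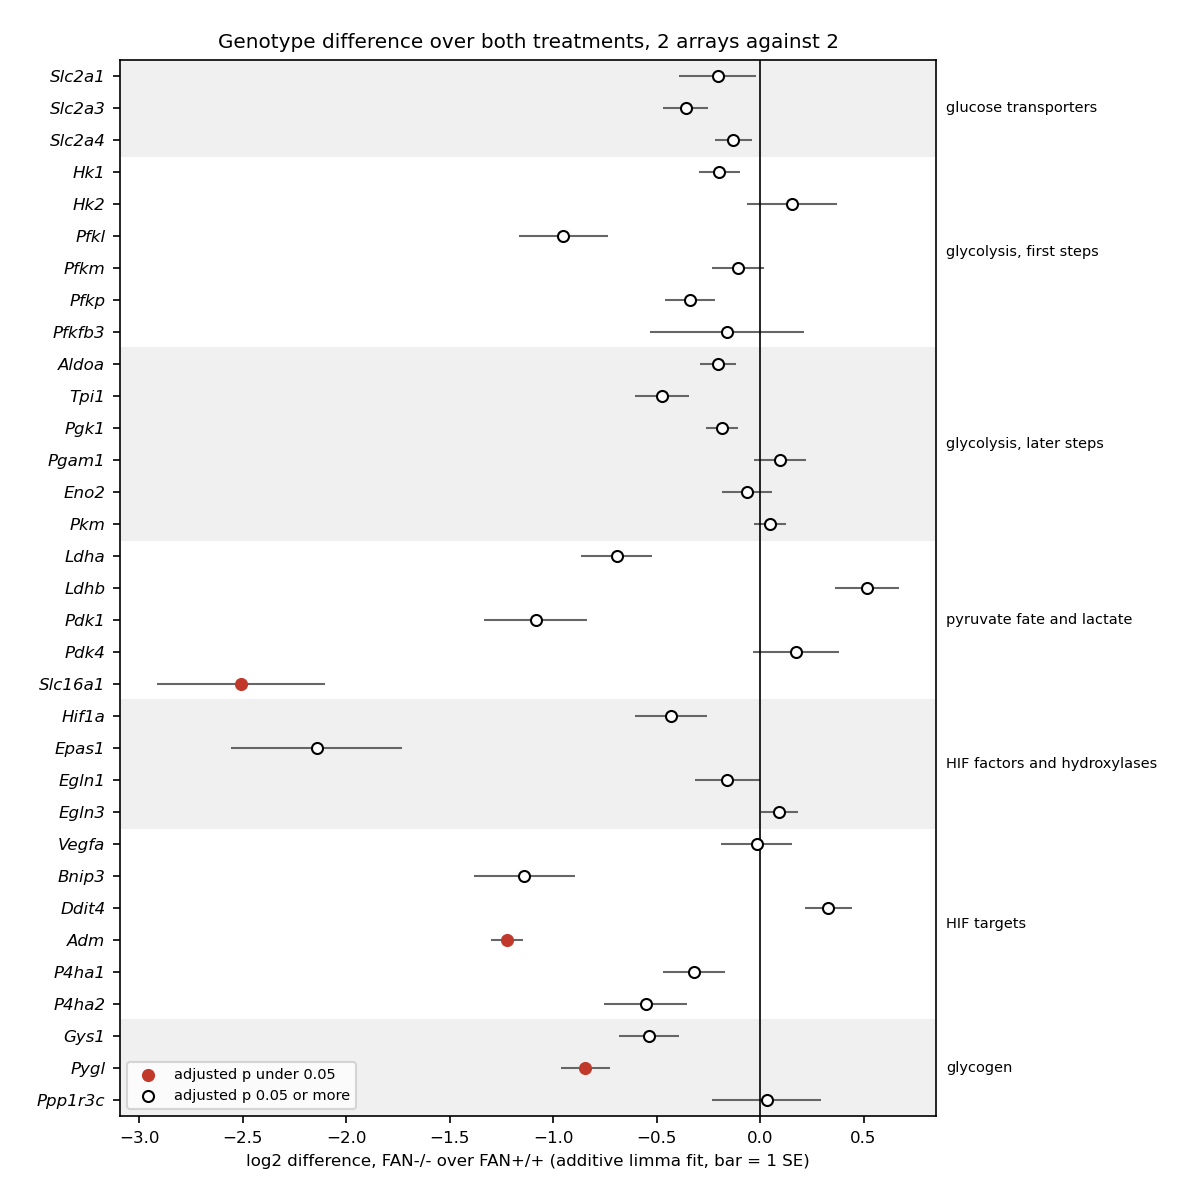
Log2 difference between FAN-/- and FAN+/+ cells over both treatments for the 33 tested genes (x axis), from the additive limma model. Bars are 1 SE, filled points have an adjusted p under 0.05 and open points do not. The filled points are Slc16a1 at -2.51, Adm at -1.23 and Pygl at -0.84.

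On both FAN-/- arrays, 15 of 33 genes were below both FAN+/+ arrays (45.5%, background 24.1%). Besides those already named they included Hk1, Pfkp, Tpi1, Slc2a3, Gys1, P4ha1 and P4ha2. Ldhb and Ddit4 were above on both (background 23.9%). Pygl is one of the 15 and passed the filter through the FAN+/+ arrays alone. Its FAN-/- values were raised to the floor, so its place in the count was fixed by the filter. Marker lists also differed by genotype. The summed signals of the fibroblast, cartilage and bone, and adipocyte lists were lower on both FAN-/- arrays than on both FAN+/+ arrays, those of the smooth muscle, epithelial and erythroid lists were higher, and the leukocyte, endothelial, skeletal muscle and neural lists overlapped. The 13 fibroblast markers summed to 117443 and 133500 on the FAN-/- arrays with and without TNF, against 151183 and 150270 on the FAN+/+ arrays. Within that list, Lum had log2 values of 7.45 and 8.78 on the FAN-/- arrays with and without TNF, against 13.42 and 12.75 on the FAN+/+ arrays. Dcn had 11.19 and 11.51 on the FAN-/- arrays, against 13.32 and 12.65 on the FAN+/+ arrays, and Pdgfra had 9.62 and 9.46 on the FAN-/- arrays, against 11.43 and 10.89 on the FAN+/+ arrays. Col1a1, Col1a2, Col3a1 and S100a4 were also lower in FAN-/- cells at each treatment. Thy1 and Fn1 were higher at each treatment, Thy1 with 9.33 and 10.27 in FAN-/- cells against 8.95 and 9.65. Pdgfrb, Col5a1 and Sparc were higher in FAN-/- cells untreated only, and Vim with TNF only. The cartilage and bone list, with 4 of 6 markers above the floor and Acan and Ibsp below it on all 4 arrays, summed to 633 and 774 on the FAN-/- arrays, against 1760 and 3254 on the FAN+/+ arrays. Within it, Comp had log2 values of 6.33 and 7.14 on the FAN-/- arrays, against 9.54 and 10.93. Col2a1 had 8.15 and 8.36, against 9.53 and 9.93. Sox9 overlapped between the genotypes, and Sp7 was higher on both FAN-/- arrays. The adipocyte list, with Adipoq and Cidec below the floor on all 4, summed to 333 and 406 on the FAN-/- arrays, against 621 and 882 on the FAN+/+ arrays. Within it, Fabp4 had log2 values of 6.52 and 5.45 on the FAN-/- arrays, against 8.56 and 8.66, while Cebpa, Lpl and Pparg overlapped. The 6 smooth muscle markers, all above the floor, summed to 31598 and 33907 on the FAN-/- arrays, against 25919 and 27394 on the FAN+/+ arrays. The epithelial and erythroid gaps were small. The epithelial list, with Cdh1, Krt18 and Krt14 below the floor on all 4, summed to 1127 and 1104, against 1099 and 1014. The erythroid list, with Hba-a1 and Alas2 below the floor on all 4, summed to 174 and 175, against 172 and 134. The 10 leukocyte markers summed to 1286 and 1759 on the FAN-/- arrays, against 1381 and 930 on the FAN+/+ arrays. The part of these differences in the results was not tested.

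Other genes of the same pathways, outside the 38, were tested in the same fit. Of 22 further genes of glycolysis and sugar transport tested, 1 rose with TNF and 0 fell, and 2 rose in FAN-/- cells and 0 fell. Over all genes, 1.57% rose and 1.14% fell with TNF, and 2.94% rose and 3.67% fell in FAN-/- cells. The gene that rose with TNF was Slc2a6, a sugar transporter known from inflammatory macrophages. Its log2 values were 8.54 with TNF and 6.29 untreated in FAN-/- cells, against 9.56 with TNF and 6.47 untreated in FAN+/+ cells. Both TNF arrays were above both untreated ones, by 2.67 ± 0.23 in the additive model (SE, limma adjusted p = 0.018). Those higher in FAN-/- cells were Bpgm, which makes bisphosphoglycerate (1.45 ± 0.18, limma adjusted p = 0.026), and the urate and sugar transporter Slc2a9 (1.11 ± 0.18, limma adjusted p = 0.040). Of 18 tested regulators of the HIF pathway, limma called 0 in either comparison, and before adjustment a p under 0.05 was reached by 1 higher gene with TNF (5.56%, against 8.20% of all genes) and by 3 lower genes in FAN-/- cells (16.7%, against 13.3%).

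Of 45 further known HIF targets tested, 4 rose and 3 fell with TNF (background 1.57% higher and 1.14% lower). Angptl4, an inhibitor of lipoprotein lipase, rose by 1.22 ± 0.085 (limma adjusted p = 0.013). Errfi1, an inhibitor of EGF receptor signalling, rose by 1.23 ± 0.11 (limma adjusted p = 0.021), and the vasoconstrictor precursor Edn1 by 1.29 ± 0.12 (limma adjusted p = 0.022). Bhlhe40 was the other that rose. Tgfb3, a TGF-beta ligand, fell by 0.94 ± 0.091 (limma adjusted p = 0.023). Cdkn1b, an inhibitor of cyclin-dependent kinases, fell by 0.96 ± 0.12 (limma adjusted p = 0.036), and Angpt2 also fell. By genotype, 3 rose and 8 fell in FAN-/- cells (background 2.94% higher and 3.67% lower). Errfi1 fell by 1.79 ± 0.11 (limma adjusted p = 0.0085) and Ndrg1, a stress-response gene, by 1.02 ± 0.11 (limma adjusted p = 0.019), whereas Edn1 rose by 1.42 ± 0.12 (limma adjusted p = 0.013). The others that rose were Tpd52, by 1.04 ± 0.096 (limma adjusted p = 0.015), and Cdkn1a, an inhibitor of cyclin-dependent kinases, by 0.64 ± 0.070 (limma adjusted p = 0.020). The median response of 47 such targets above the floor was 0.00 in FAN-/- cells and 0.07 in FAN+/+ cells, beside -0.01 and 0.52 for the 6 targets among the 38 genes.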

How the data were processed

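RNA of 4 conditions was measured on 4 one-colour Affymetrix arrays. The authors deposited log2 values (2.79 to 14.40). Their processing notes list MAS5 without a version, and the summary method and normalization are not given in the sources used here. Probe sets were named from the platform annotation: 34945 name 1 gene, 932 several and 9160 none here, besides 64 controls. Of those naming 1 gene, 34741 matched the reference gene table. The probe set of highest mean stood for each of 18193 genes, and values below the 50th percentile (log2 6.27) were raised to it. limma 3.58.1 (R 4.3.3) fitted TNF and genotype with an intensity trend to the 11817 genes that exceeded this floor on 2 arrays or more, with 1 residual degree of freedom, and called genes at an adjusted p under 0.05. The fit was tested on simulated data. Promoters were RefSeq's. The array number limits the precision. Genes named outside the 38 are at most 5 per list and comparison, by smallest adjusted p, plus those completing a count of 5 or fewer. The 38 genes and all lists were chosen with earlier results of these data known. Floors, scalings, choices of probe set and model terms were varied.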

Additional observations from a re-analysis of the deposited data

Results flagged for a closer look

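For 6 genes the TNF response had opposite signs in the 2 genotypes, 1 array against 1, and the difference was not tested. The difference of responses, FAN-/- minus FAN+/+, was 0.17 for Hk1, -0.44 for Tpi1, -0.94 for Pdk1, 0.76 for Pdk4, -0.52 for Egln1 and -0.57 for Vegfa on the log2 scale. In Hk1, Tpi1, Pdk1, Egln1 and Vegfa, 1 of the 2 responses was smaller than 0.05. For Hk1, Egln1 and Vegfa the other probe set had the same sign in both genotypes, with responses of 0.21 in FAN-/- cells and 0.04 in FAN+/+ cells for Hk1, 0.07 in FAN-/- cells and 0.52 in FAN+/+ cells for Egln1, and 0.04 in FAN-/- cells and 0.61 in FAN+/+ cells for Vegfa. Both other Tpi1 probe sets kept the opposite signs. The other Pdk1 probe set that lay above the floor on all 4 arrays gave -0.16 in FAN-/- cells and 1.19 in FAN+/+ cells. Pdk4, with 1 probe set, differed by 0.31 in FAN-/- cells and by -0.45 in FAN+/+ cells.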

How the results depend on the processing

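Each condition holds 1 array, so the genotype term of the additive model was the only pairing of treated with untreated arrays. With the floor at the 70th percentile, 0 genes were 2-fold lower with TNF in FAN-/- cells, 2 were lower by genotype in untreated cells, and 2 smaller and 0 larger responses remained. The dimmer probe set gave 0 lower with TNF in FAN-/- cells, 0 in FAN+/+ cells, 2 lower by genotype untreated, 2 smaller and 0 larger responses. The mean of probe sets gave 2 lower by genotype untreated and 0 larger responses, and quantile normalization 0 larger responses. limma called 2 genes higher with TNF at the 70th percentile, under quantile normalization and with the mean of probe sets, 1 without a floor and 5 with centred arrays. It called 0 lower at the 30th percentile, with the dimmer probe set and without the genotype term. By genotype, 11 were lower with centred arrays and 0 without the TNF term. No called value changed sign. Single-gene values with a test stayed on the same side of the threshold in 544 repeats, gained a call in 22 and lost it in 8, and 23 of the values without a test moved. Over all genes, 186 rose and 135 fell with TNF, against 405 and 518 with centred arrays, 101 and 70 with the dimmer probe set, 250 and 208 without a floor, 233 and 225 at the 70th percentile, and 0 and 0 without the genotype term (450 and 434 at an unadjusted p under 0.05). By genotype, 347 rose and 434 fell, against 532 and 980 with centred arrays, 228 and 279 with the dimmer probe set, and 4 and 6 without the TNF term. The cause of these changes was not tested. With 1 array a condition, differences between single arrays have no error.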

Other observations

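Genes around pyruvate, the pentose phosphate pathway and glycogen, outside the 38, gave a few further calls. Of 17 tested genes of pyruvate entry and lactate transport, 0 rose and 2 fell with TNF (background 1.57% higher and 1.14% lower). Pdp1, the phosphatase that switches pyruvate dehydrogenase on, fell by 0.89 ± 0.11 (log2, SE, limma adjusted p = 0.036). It had log2 values of 7.97 with TNF and 8.84 untreated in FAN-/- cells, against 9.11 with TNF and 10.02 untreated in FAN+/+ cells. It also fell in FAN-/- cells, by 1.16 ± 0.11 (limma adjusted p = 0.016). Slc16a4, a relative of the lactate transporters, fell with TNF by 1.02 ± 0.10 (limma adjusted p = 0.025). Emb, embigin, a membrane partner of lactate transporters, fell in FAN-/- cells by 1.76 ± 0.25 (limma adjusted p = 0.032), with log2 values of 8.74 with TNF and 9.22 untreated in FAN-/- cells against 11.00 with TNF and 10.49 untreated in FAN+/+ cells.

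Of 18 tested further glycogen genes, 0 rose and 1 fell with TNF (background 1.57% higher and 1.14% lower). Pygb, the brain form of glycogen phosphorylase, fell by 0.82 ± 0.093 (limma adjusted p = 0.031), and 16 of the 18 had a negative estimate, as had 6327 of all 11817 genes. In FAN-/- cells, Gyg, which primes glycogen, rose by 0.55 ± 0.083 (limma adjusted p = 0.036) and Stbd1, which binds glycogen, by 1.05 ± 0.16 (limma adjusted p = 0.036). Of 9 tested pentose phosphate genes, limma called 0 in either comparison, and before adjustment a p under 0.05 was reached by 2 higher genes with TNF (22.2%, against 8.20% of all genes) and by 3 higher genes in FAN-/- cells (33.3%, against 11.2%).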
